A study of Mus musculus with 4 samples.

Results

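The 37 genes of the mouse mitochondrial genome were read along the tibialis anterior, a fast shin muscle. They were taken as all entries for a single gene whose symbol starts with mt-, and they are 37 of the 28989 genes listed in the kept sections. The set holds 13 protein genes, 2 ribosomal RNAs and 22 transfer RNAs. The data come from TOMO-seq, in which a tissue is cut into cryosections along 1 axis and the RNA of each section receives its own barcode, here with CEL-Seq2 after TRIzol extraction. There were 4 mouse muscles, all of 1 group, with 37, 45, 46 and 43 kept sections in muscles 1 to 4. The labels used here give no strain, genotype, age, sex or treatment. Whether each muscle is from another animal is not labelled either, so the spread between these samples may be technical. The p-values below compare places along the muscles. They measure the scatter left after each muscle's own level is taken out. The skeletal fibre markers checked against the tissue label were all present, with the fast myosin Myh4 at 5272 to 7670 and the creatine kinase Ckm at 6145 to 10126 CPM over the 4 muscles (counts scaled to a total of 1000000).

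Mitochondrial DNA is transcribed from both strands into long precursor RNAs. Most messenger and ribosomal RNAs are flanked by transfer RNAs, and cutting those out releases the RNAs between them. The 13 proteins are subunits of respiratory complexes I, III and IV and of ATP synthase, the machinery of oxidative ATP supply, on which slow and oxidative fibres rely most. The ribosomal and transfer RNAs serve the organelle's own ribosome. In this genome 28 of the genes lie on the plus strand and 9 on the minus strand.

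The sequences of the genes the results turn on are printed 5′ to 3′, from the GENCODE M21 transcripts on GRCm38, all on the plus strand of chromosome M. The first pair are whole transfer RNA genes, and capitals mark the anticodon. mt-Tm, for methionine, lies at chrM:3845-3913 and ends on the base before mt-Nd2 starts. mt-Tv, for valine, lies at chrM:1025-1093 with no base between it and either ribosomal RNA gene.
mt-Tm: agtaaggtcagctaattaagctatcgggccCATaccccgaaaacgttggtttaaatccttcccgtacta
mt-Tv: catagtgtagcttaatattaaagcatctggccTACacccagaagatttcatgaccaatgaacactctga

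mt-Atp8 encodes a small subunit of ATP synthase and lies at chrM:7766-7969. It is shown whole because its last 43 bases, in capitals, are also the first bases of mt-Atp6, another subunit of the same enzyme. A read from there fits either gene. Whether the counts of the overlapping genes come from separate RNAs was not tested.
mt-Atp8: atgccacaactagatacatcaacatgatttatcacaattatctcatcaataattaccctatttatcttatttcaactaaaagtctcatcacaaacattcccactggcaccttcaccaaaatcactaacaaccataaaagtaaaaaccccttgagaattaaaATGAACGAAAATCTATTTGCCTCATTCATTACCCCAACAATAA

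CEL-Seq2 counts the 3′ ends of RNAs with a poly(A) tail. The genes mt-Co3, mt-Nd4 and mt-Cytb stop 1 base into their final codon, and in animal mitochondria the poly(A) tail is known to complete such a stop codon. Their final 30 bases are shown with that base in capitals, at chrM:9361-9390, chrM:11515-11544 and chrM:15259-15288.
mt-Co3 end: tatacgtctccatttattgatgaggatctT
mt-Nd4 end: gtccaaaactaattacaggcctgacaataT
mt-Cytb end: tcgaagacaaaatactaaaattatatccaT

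Mitochondrially encoded RNAs made up most of the transcripts of these muscles, and nearly all of them came from values near the limit of what the assay can count. They took 59.1%, 60.9%, 64.1% and 66.9% of the corrected transcripts in muscles 1 to 4, or 62.8% ± 3.45 (SD, n = 4). A transcript here carries a unique molecular identifier (UMI) of 6 bases, so the number of distinct UMIs a gene can show in a section has a ceiling. The deposited values are corrected for UMIs drawn more than once, and that correction grows steeply near the ceiling. Values that used at least 90% of the UMIs, which is 3687 of them, are called near the ceiling. They held 91.7%, 88.6%, 93.8% and 92.1% of the mitochondrially encoded transcripts in muscles 1 to 4. Counted as distinct UMIs, before any correction, the share was 22.8%, 27.6%, 22.7% and 26.4% of all UMIs in the same muscles. The 24 members that were never near the ceiling held only 0.250%, 0.258%, 0.338% and 0.322% of the corrected transcripts.

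**Figure D1:**
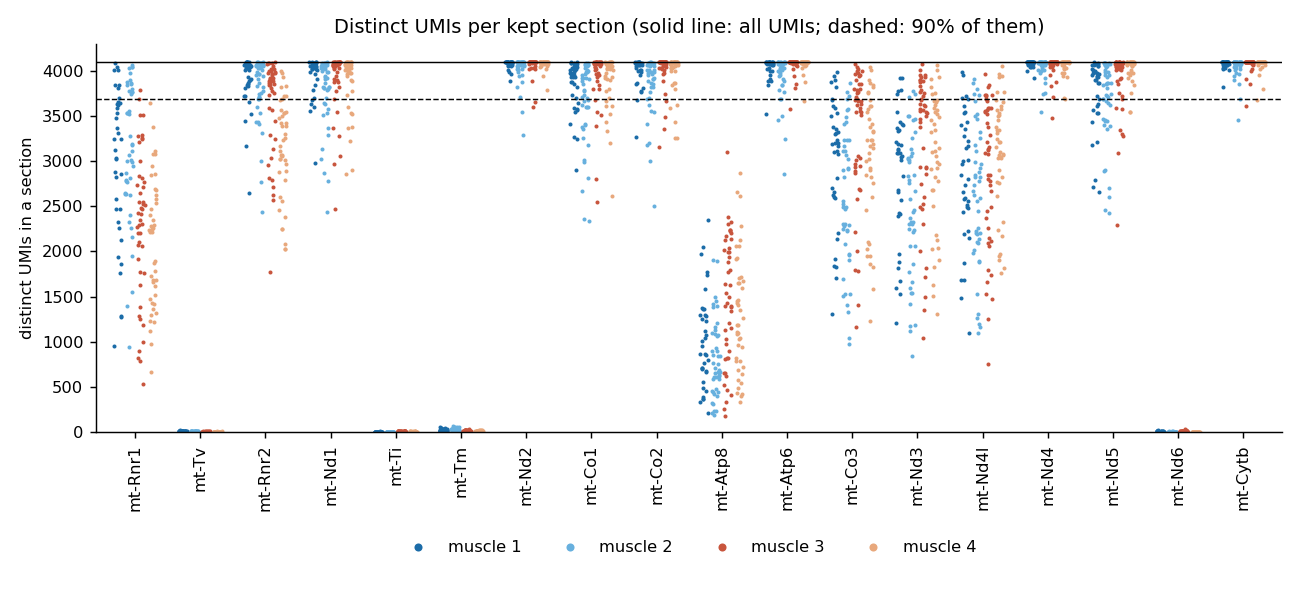
Distinct UMIs in each kept section (y axis, points coloured by muscle) for the 18 members that could be tested, in genome order. mt-Nd2, mt-Atp6, mt-Nd4 and mt-Cytb sit on the solid line, where every UMI was seen, in most sections, while mt-Atp8 stays below the dashed line at 3687 everywhere and the transfer RNAs and mt-Nd6 lie near 0.

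The ceiling split the members. Of the 37 members 13 were near it in 1 or more sections, and these 13 are called saturated: both ribosomal RNAs and 11 proteins. mt-Cytb, the one complex III subunit of this genome, was near the ceiling in 168 of 171 sections and had used every UMI in 119. mt-Nd4, a complex I subunit, was near it in 169 sections. mt-Co3, mt-Nd3, mt-Nd4l and mt-Rnr1 reached it in only 36, 31, 24 and 25 sections, so most of their values are below it. Over all members 1445 of 6327 section values were near the ceiling and 542 had every UMI seen. The proteins never near it were mt-Atp8, whose highest section used 75.7% of the UMIs, and mt-Nd6.

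Set per length, the proteins of the plus strand and the ribosomal RNAs formed 1 high group, and the transfer RNAs and mt-Nd6 a low group. mt-Atp6 had 116616 ± 27077 CPM per kb (SD, n = 4), and the plus-strand proteins ran from there down to mt-Atp8 at 14032 ± 2307 CPM per kb. The large ribosomal RNA mt-Rnr2 stood at 19778 ± 10268 CPM per kb and the small one, mt-Rnr1, at 12375 ± 7026 CPM per kb. Below them came mt-Tm at 503 ± 375 CPM per kb, with every muscle below every muscle of mt-Rnr1. mt-Nd6, the complex I subunit on the minus strand, was counted at 10.1 ± 4.84 CPM per kb. CEL-Seq2 counts RNAs with a poly(A) tail, so these values do not give the level of all RNA from a gene. Levels of saturated genes are uncertain, because a value with all UMIs seen is capped at 62356 transcripts while 1 unseen UMI gives 34065.

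The order within the high group depends on scaling to length, while CEL-Seq2 counts 3′ ends. Per kb of gene, from the highest mean down, it ran mt-Atp6, mt-Nd2, mt-Co2, mt-Cytb, mt-Nd4, mt-Nd1, mt-Nd4l, mt-Nd3, mt-Co1, mt-Nd5, mt-Rnr2, mt-Co3, mt-Atp8 and mt-Rnr1. In CPM without that scaling the highest means were 98078 for mt-Cytb, 91766 for mt-Nd4, 90436 for mt-Nd2 and 79415 for mt-Atp6. Per kb, of the 36 neighbouring pairs over all 37 genes, 31 overlapped between muscles. The pairs that did not overlap were mt-Cytb over mt-Nd4, mt-Nd4 over mt-Nd1, mt-Nd3 over mt-Co1, mt-Rnr1 over mt-Tm and mt-Tm over mt-Tv. mt-Nd4l and mt-Nd4, which share 7 bases on the same strand, had 39836 ± 4518 and 66593 ± 5249 CPM per kb. Without scaling to length, the transcripts of mt-Nd4l were 11.5%, 13.4%, 12.6% and 14.1% of those of mt-Nd4 in muscles 1 to 4. mt-Nd4 had every UMI seen in 26, 17, 31 and 30 sections of these muscles. Its values are capped there, so these shares are uncertain. Whether the counts of this pair come from separate RNAs was not tested.

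**Figure D2:**
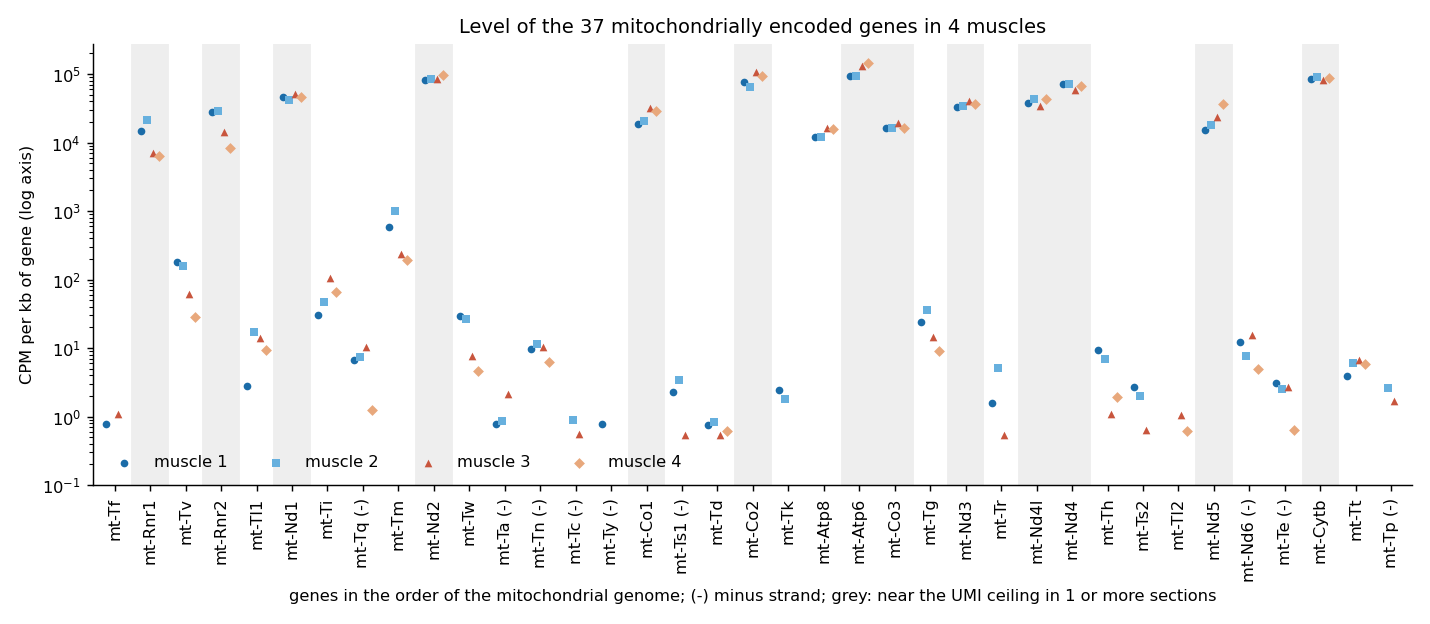
Level of each member in CPM per kb of gene (log axis), in genome order, with 1 point per muscle; a muscle with no transcript has no point, and grey bands mark saturated genes. Plus-strand proteins and ribosomal RNAs lie at 6380.5 CPM per kb or more in every muscle, and every transfer RNA and mt-Nd6 lies at 1001 or less.

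Few transcripts were assigned to transfer RNAs. The assay counts RNAs with a poly(A) tail, so these counts do not give the level of all RNA from such a gene. Whether they come from mature or precursor RNA was not tested. mt-Tm, with the highest counts, had 40.1, 69.1, 16.4 and 13.2 CPM in muscles 1 to 4. mt-Tv had 12.3, 10.8, 4.23 and 1.97 CPM. mt-Ti, for isoleucine, followed with 2.06, 3.21, 7.27 and 4.59 CPM. These were the 3 transfer RNAs with enough counts to test. The other 19 had 1 to 114 transcripts over all 4 muscles, from mt-Ty to mt-Tg, and 10 of the 19 were missing from at least 1 muscle. All 8 transfer RNAs of the minus strand were among those 19, and together they had 1.64, 2.05, 2.001 and 0.568 CPM. In all, 34, 34, 35 and 28 members were detected in muscles 1 to 4. A member not detected could still have been present at up to 0.159, 0.175, 0.111 and 0.131 CPM, which is 3 transcripts of the muscle's total.

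The balance between the RNA classes, in counts of RNAs with a poly(A) tail, differed between muscles 1 and 2 and muscles 3 and 4. These pairs were prepared with different sets of section barcodes. Ribosomal RNAs were 9.78% and 10.9% of the mitochondrially encoded transcripts in muscles 1 and 2, against 4.52% and 2.85% in muscles 3 and 4. mt-Rnr1 had 14304 and 20178 CPM in muscles 1 and 2, against 6695 and 6093 CPM in muscles 3 and 4. mt-Tm was 3.69 times as high in muscles 1 and 2 and mt-Tv 3.72 times, by the means of each pair. mt-Nd5, a complex I subunit, went the other way, with 27903 and 33344 CPM in muscles 1 and 2 and 43544 and 66448 CPM in muscles 3 and 4.

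Of the 18 members tested, 5 were higher in both of muscles 1 and 2 than in either of muscles 3 and 4 (mt-Rnr1, mt-Rnr2, mt-Tv, mt-Tm and mt-Nd4), where 46.4% of all genes tested were. Another 8 were lower without overlap, where 18.9% of all genes were. With 2 muscles in each set no test is given, and barcode set and muscle cannot be told apart.

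The remaining results concern position. Sections were placed from 0 (the first kept) to 1 (the last kept) by barcode number and grouped into 5 zones of equal length. The labels do not tell which end was sectioned first, and here the first end means the low barcode numbers. Zone sums were compared with edgeR's quasi-likelihood test with Benjamini-Hochberg adjustment over 9317 genes, and a gene is called at an adjusted p under 0.05. Of the 37 members 18 had enough counts to be tested: all 13 proteins, both ribosomal RNAs and 3 transfer RNAs. Fewer cells of a type and less RNA per cell cannot be told apart in such sections.

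mt-Tm and mt-Atp8 were lower at the ends of the muscle (zones 1 and 5) than in its middle (zone 3). They were the 2 of 18 members called there, both never near the ceiling, while 1.45% of all genes tested were called (0.623% higher and 0.826% lower). mt-Tm had 27.5 and 24.1 CPM in zones 1 and 5 of muscle 1, against 59.03 CPM in its zone 3. In muscle 2 it had 62.7 and 41.8 CPM at the ends and 74.1 CPM in the middle. In muscle 3 it had 12.7 and 10.6 CPM at the ends and 20.3 CPM in the middle, and in muscle 4 it had 14.2 and 5.80 CPM at the ends and 17.8 CPM in the middle.

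The middle was above both ends in all 4 muscles, and the last end was the lowest zone of each. The first end fell less. On the scaled log2 values, zone 1 minus zone 3 was -0.73, -0.03, -0.72 and -0.28 in muscles 1 to 4. Zone 5 minus zone 3 was -1.11, -1.01, -1.01 and -1.46. The fitted difference of mt-Tm, ends minus middle, was -0.74 ± 0.10 on the log2 scale (SE, edgeR adjusted p = 5.30e-07). The 4 muscles, in order, gave -0.92, -0.52, -0.86 and -0.87. It rests on few molecules, from 23 to 360 transcripts in each of these zones.

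Section by section, the end and middle sections of mt-Tm did not overlap in muscle 1. Its 16 end sections ran from 13.1 over a median of 25.1 to 38.7 CPM, and its 6 middle sections from 43.7 over 54.03 to 91.9 CPM. In muscle 2 the 18 end sections ran from 11.1 over 54.4 to 143 CPM and the 9 middle sections from 29.3 over 73.9 to 147 CPM. In muscle 3 the 20 end sections ran from 0 over 10.9 to 33.7 CPM and the middle ones from 5.25 over 24.2 to 39.7 CPM. In muscle 4 the end sections ran from 0 over 8.84 to 31.1 CPM and the middle ones from 9.49 over 17.5 to 30.3 CPM. The groups overlapped in muscles 2, 3 and 4, but 14 of 18, 19 of 20 and 16 of 18 end sections there lay below the median of the middle.

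**Figure D3:**
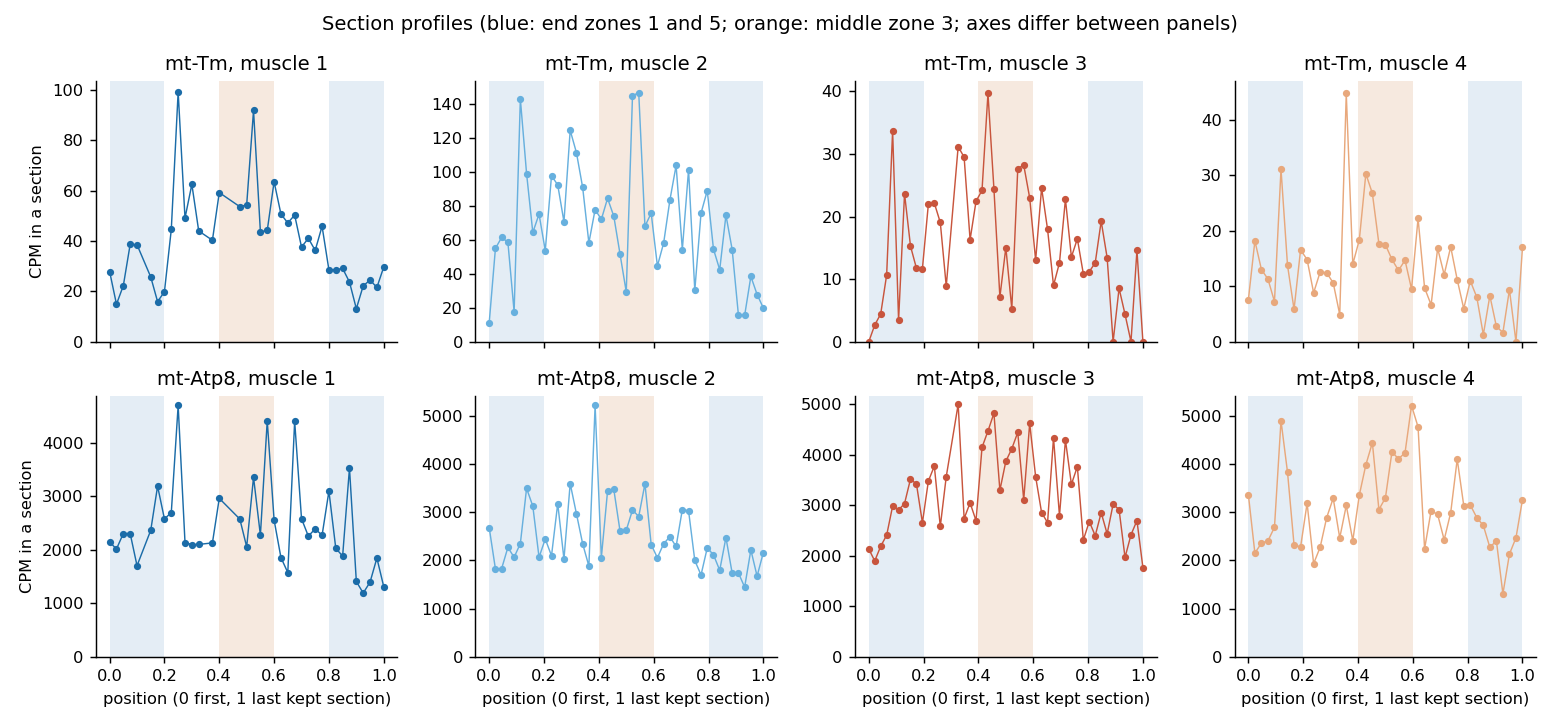
CPM of mt-Tm (top) and mt-Atp8 (bottom) in each kept section against its position, 1 panel per muscle, with end zones shaded blue and the middle zone orange; the y axes start at 0 and differ between panels. In muscle 1 no end section of mt-Tm reaches the lowest middle section at 43.7 CPM.

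mt-Atp8 had 2370 and 2264 CPM in zones 1 and 5 of muscle 1, against 2671 CPM in zone 3. The ends and the middle of muscle 2 had 2297 and 1953 CPM and 2918 CPM. In muscle 3 the ends had 2942 and 2555 CPM and the middle 4091 CPM, and in muscle 4 the ends had 2926 and 2487 CPM and the middle 4106 CPM. Of the end sections, 13 of 16, 16 of 18, 20 of 20 and 17 of 18 lay below the median of the middle in muscles 1 to 4, and the ranges overlapped in each. The fitted difference was -0.39 ± 0.08 (edgeR adjusted p = 0.00126), and the scaled values of muscles 1 to 4 gave 0.07, -0.45, -0.64 and -0.52. The value of muscle 1 was above 0 on that scale, and those of the other 3 below. Zone 1 minus zone 3 was 0.19, -0.14, -0.51 and -0.45 in muscles 1 to 4, and zone 5 minus zone 3 was -0.06, -0.77, -0.76 and -0.59. Without muscle 3 the call was lost (-0.31, edgeR adjusted p = 0.196), as it was in muscles 1 and 2 alone (-0.19, edgeR adjusted p = 0.530) and with 3 zones (-0.18, edgeR adjusted p = 0.304).

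None of the 13 saturated members was called between ends and middle, and 2 of them had an unadjusted p under 0.05. Their differences ran from -0.23 for mt-Rnr1 to 0.25 for mt-Co1, the core subunit of complex IV, with a median of 0.07, against -0.01 over all genes tested. mt-Cytb was at 0.19 ± 0.11 (edgeR adjusted p = 0.545), mt-Nd4 at 0.08 ± 0.12 (edgeR adjusted p = 0.877) and mt-Rnr2 at -0.21 ± 0.11 (edgeR adjusted p = 0.455). Of the other transfer RNAs tested, mt-Tv was at -0.45 ± 0.18 (edgeR adjusted p = 0.241) and below 0 in all 4 muscles. mt-Ti was at -0.08 ± 0.19 (edgeR adjusted p = 0.931), with 0.54 and 0.80 in muscles 1 and 2 and -0.44 and -0.20 in muscles 3 and 4. When distinct UMIs were tested in place of corrected counts, 8 of the saturated proteins were called higher at the ends, from 0.44 for mt-Nd5 to 0.53 for mt-Cytb, and mt-Atp8 was not called (-0.26, edgeR adjusted p = 0.103). mt-Tm was at -0.74 (edgeR adjusted p = 4.89e-07). Over all 9363 genes tested with distinct UMIs, 69 were called higher at the ends and 77 lower.

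Section depth moved with place. The median end section held 450124, 251359, 373781 and 539349 transcripts in muscles 1 to 4, and the median middle section 492053, 516908, 598650 and 675418. The median section of the first end held 494012, 255010, 468806 and 612213 transcripts, against 406235, 208255, 354969 and 482562 at the last end, so the first end was deeper in all 4 muscles. Within muscles, Spearman's rho between the distinct-UMI share and section depth was -0.94 to -0.97 over 37 to 46 sections. For mt-Tm in CPM rho with depth was -0.002 to 0.29, and for mt-Atp8 it was -0.001 to 0.43. The part of depth in these differences was not tested.

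**Figure D4:**
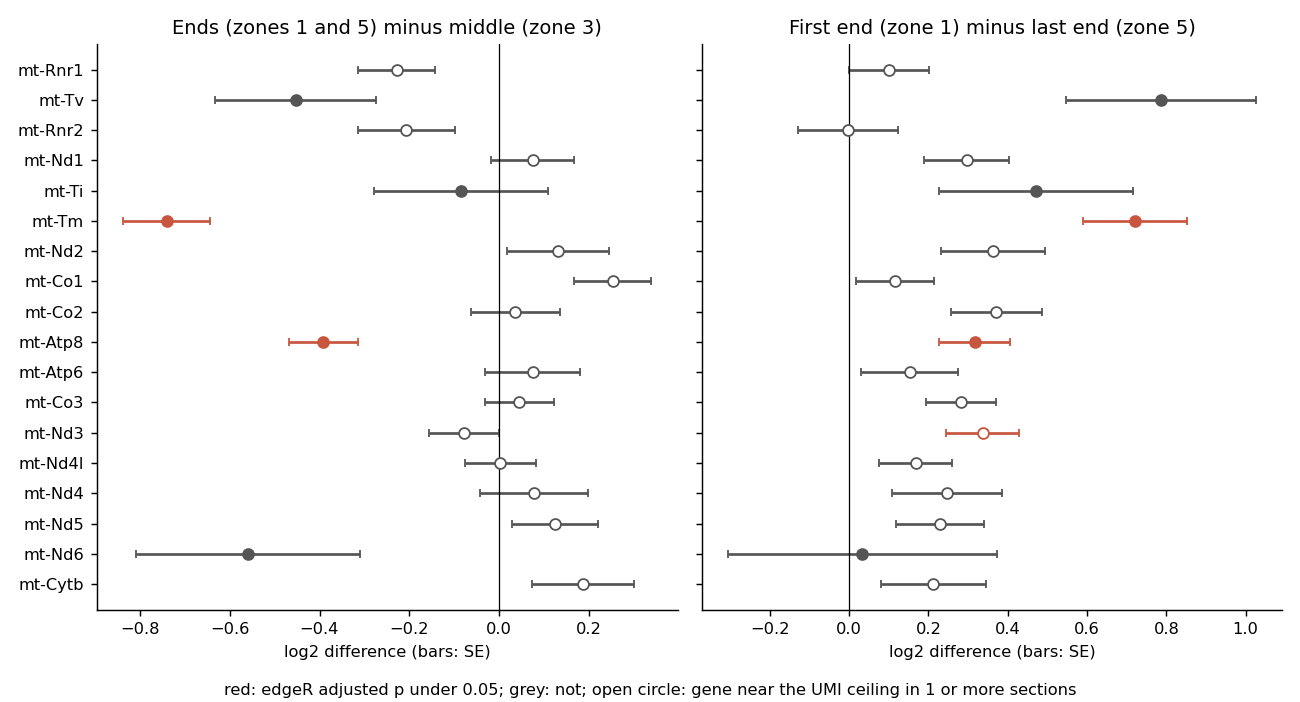
Fitted log2 difference with its SE for the 18 members tested, ends minus middle (left) and first end minus last end (right); red marks an edgeR adjusted p under 0.05 and open circles mark saturated genes. At the ends mt-Tm (-0.74) and mt-Atp8 (-0.39) stand below 0, and in the other contrast 17 of 18 members lie above 0.

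Between the 2 ends, mt-Tm, mt-Nd3 and mt-Atp8 were higher at the first end than at the last. They were 3 of 18 members tested, while 3.19% of all genes were called (2.05% higher and 1.14% lower). Of the 18 differences 17 were above 0, with a median of 0.26, against -0.002 over all genes. mt-Tm differed by 0.72 ± 0.13 (edgeR adjusted p = 0.000205), from the zone values above, and was higher at the first end by 0.38, 0.98, 0.29 and 1.18 in muscles 1 to 4. mt-Atp8 differed by 0.32 ± 0.09 (edgeR adjusted p = 0.0331). The 4 muscles, in order, gave 0.25, 0.63, 0.25 and 0.14.

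mt-Nd3, a complex I subunit, had 11722, 12765, 13375 and 12753 CPM at the first end in muscles 1 to 4, against 10266, 10332, 12709 and 10949 CPM at the last end. The first end was above the last in each muscle, but the ranges over muscles overlapped. Its difference was 0.34 ± 0.09 (edgeR adjusted p = 0.0241), and it is near the ceiling in 31 sections. With near-ceiling values left out it was 0.31 and called (edgeR adjusted p = 0.0165). With distinct UMIs it was 0.15 and not called (edgeR adjusted p = 0.659). The call was also lost with the outermost 2 sections left out at each end (0.26, edgeR adjusted p = 0.109) and with limma on section means (0.20, limma adjusted p = 0.219). For mt-Atp8 the call was lost with distinct UMIs (0.29, edgeR adjusted p = 0.110), with 3 zones (0.21, edgeR adjusted p = 0.111) and with limma on section means (0.23, limma adjusted p = 0.153).

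All 3 calls were lost without muscle 2. Without it the differences were 0.58, 0.22 and 0.22 for mt-Tm, mt-Atp8 and mt-Nd3, and none was called (edgeR adjusted p = 0.0659, 0.425 and 0.435). mt-Nd3 was also lost without muscle 1 (edgeR adjusted p = 0.0953) and mt-Atp8 without muscle 3 (edgeR adjusted p = 0.0895). Within the barcode sets, 9 of 18 members were called in muscles 1 and 2 alone and 0 of 18 in muscles 3 and 4 alone. Over all genes tested in these fits, 159 of 8725 and 74 of 9208 were called. In muscles 3 and 4 alone mt-Tm was at 0.69 (edgeR adjusted p = 0.174).

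Of the members not called, mt-Tv was at 0.79 ± 0.24 (edgeR adjusted p = 0.0535), above 0 in all 4 muscles. mt-Rnr2 was at -0.003 ± 0.13 and mt-Rnr1 at 0.10 ± 0.10 (edgeR adjusted p = 0.997 and 0.757). mt-Cytb was at 0.21 ± 0.13 and mt-Nd4 at 0.25 ± 0.14 (edgeR adjusted p = 0.526 and 0.461).

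Across any of the 5 zones, mt-Tm, mt-Atp8 and mt-Rnr1 were called, 3 of 18 members, while 3.99% of all genes were. The fitted range from the lowest to the highest zone was 1.10 for mt-Tm, 0.55 for mt-Atp8 and 0.46 for mt-Rnr1 (edgeR adjusted p = 2.11e-09, 0.000544 and 0.00563). mt-Rnr1 had 11773, 13667, 16726, 13681 and 15461 CPM in zones 1 to 5 of muscle 1, and 17065, 23105, 22401, 18497 and 16473 CPM in muscle 2. In muscle 3 it had 6215, 7911, 7046, 5982 and 6177 CPM, and in muscle 4 it had 5567, 8500, 6405, 5826 and 4671 CPM. Zone 2 was the highest zone of muscles 2, 3 and 4 but not of muscle 1. With distinct UMIs the range of mt-Rnr1 was 0.26 and not called (edgeR adjusted p = 0.515), and with 3 zones it was 0.26 (edgeR adjusted p = 0.0590). The call of mt-Rnr1 was lost without muscle 2, 3 or 4 (edgeR adjusted p = 0.0569, 0.0547 and 0.185) and in muscles 1 and 2 alone (0.525), and that of mt-Atp8 without muscle 2 or 3 (edgeR adjusted p = 0.0574 and 0.0662).

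The summed share showed no common direction between ends and middle. Relative to zone 3, the mean of zones 1 and 5 differed by 6.07, -1.66, -4.50 and 0.884 percentage points of corrected transcripts in muscles 1 to 4. As distinct UMIs the same differences were 3.74, 8.87, 0.965 and 3.47 points, above 0 in all 4. The first end exceeded the last by 4.29, 10.1, 2.06 and 0.698 points of corrected transcripts in the 4 muscles. As distinct UMIs the first end differed from the last by 3.05, -0.496, -1.30 and -4.78 points. The sign of the share's difference changed with the UMI correction in muscle 2 and muscle 3 for ends against middle, and in muscles 2, 3 and 4 between the ends.

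**Figure D5:**
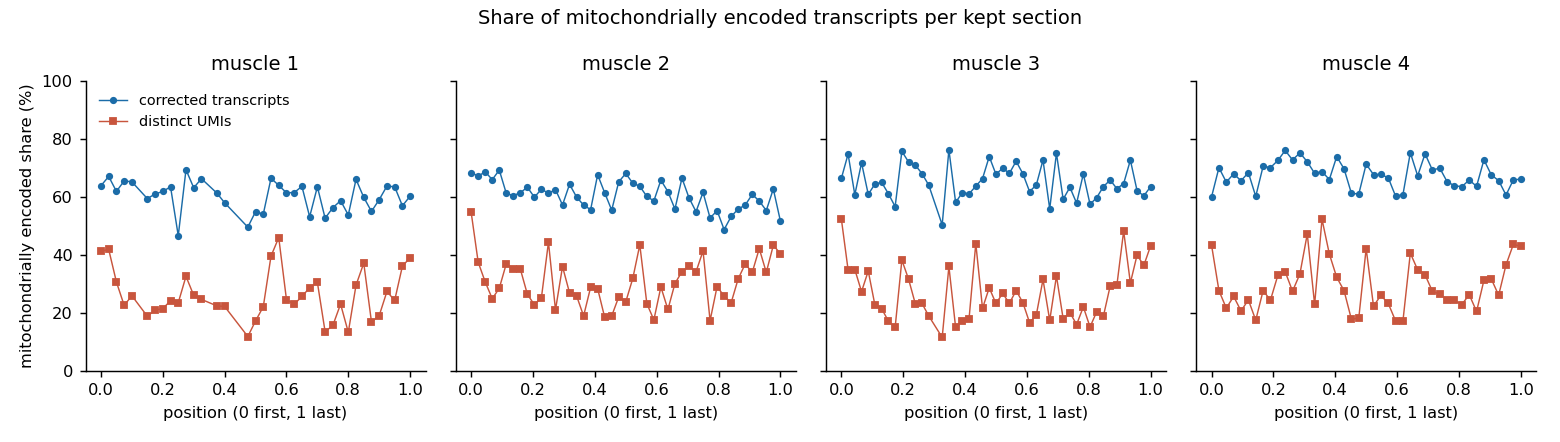
Mitochondrially encoded share of corrected transcripts (blue circles) and of distinct UMIs (red squares) in each kept section against its position, 1 panel per muscle. Single sections ran from 46.6% to 76.3% of corrected transcripts and from 11.5% to 54.7% of distinct UMIs.

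Nuclear genes of the respiratory chain were often called higher at the first end, where 2.05% of all genes were higher and 1.14% lower. Of 76 nuclear respiratory chain genes tested, 40 were higher at the first end than at the last and 0 lower, with 75 of 76 above 0 and a median of 0.26. The largest were Atp5g1, a ring subunit of ATP synthase (0.41 ± 0.07, edgeR adjusted p = 6.12e-05), Ndufa8, a complex I subunit (0.39 ± 0.08, edgeR adjusted p = 0.00240), and Atp5d, a subunit of the ATP synthase stalk (0.38 ± 0.09, edgeR adjusted p = 0.00340). At the ends against the middle, 2 of the 76 were lower and 0 higher: Ndufa4, a complex IV subunit (-0.46 ± 0.06, edgeR adjusted p = 9.66e-07), and Cox8b, a complex IV subunit of muscle (-0.39 ± 0.07, edgeR adjusted p = 0.000205). The list's median there was -0.06, against -0.01 over all genes, of which 0.826% were called lower and 0.623% higher.

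Genes that transcribe, cut and modify mitochondrial RNA were called at a share near that of all genes. Of 29 tested, out of 40 listed, 0 were called between ends and middle (median -0.01), where 1.45% of all genes were. Between the ends, where 3.19% of all genes were called, 1 was, Tfb2m, the transcription factor that opens mitochondrial promoters (0.42 ± 0.13, edgeR adjusted p = 0.0474). That call was lost with scaling from nuclear genes.

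Other cell types also differed in these zones. Of all genes tested, 0.826% were called lower at the ends and 0.623% higher. Of the markers listed, 2 of 6 for slow and oxidative fibres, 2 of 3 for fat and 4 of 5 for tendon could be tested. Between ends and middle, 4 of 4 Schwann cell markers and 4 of 5 fibro-adipogenic progenitor markers were lower at the ends. So were 2 of 2 slow and oxidative fibre markers, 1 of 5 endothelial markers and the 1 macrophage marker tested of 4 listed. Higher there were 2 of 4 tendon and 2 of 2 fat markers. Of the erythrocyte, smooth muscle and pericyte, and skeletal fibre markers, 0 of 5, 0 of 5 and 0 of 8 were called. Summed slow and oxidative fibre markers ran from 98.6 to 515 CPM at the ends and from 171 to 1170 CPM in the middle of the 4 muscles, with Myh7 at 0 in at least 1 muscle. Summed Schwann markers ran from 10.3 to 21.2 CPM at the ends and from 23.1 to 30.6 CPM in the middle, and summed fibro-adipogenic markers from 257 to 379 and from 287 to 646 CPM. Tendon markers summed to 23.7 to 89.7 CPM at the ends and 12.6 to 45.4 CPM in the middle. The higher tendon sums were those of the last end, at 35.6 to 140 CPM, against 8.48 to 19.8 CPM at the first. Fat markers summed to 2.45 to 12.7 CPM at the ends and 0.502 to 3.50 CPM in the middle.

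Between the first and the last end, 5 of 5 erythrocyte markers were higher, with sums of 1365 to 3552 CPM and 633 to 1759 CPM, and 3 of 4 tendon markers were lower, with sums of 8.48 to 19.8 CPM and 35.6 to 140 CPM. Of the Schwann cell markers 2 of 4 were higher at the first end and 4 of 4 lay above 0, with sums of 9.41 to 32.1 CPM at the first end and 6.30 to 13.5 CPM at the last. Of the smooth muscle and pericyte markers 2 of 5 were higher and 5 of 5 lay above 0, with sums of 151.6 to 299.8 CPM at the first end and 138 to 221 CPM at the last. Of the endothelial and the fibro-adipogenic progenitor markers, 1 of 5 each was higher. Of the skeletal fibre markers 1 of 8 was higher and 1 lower. No slow and oxidative fibre, fat or macrophage marker tested was called. Of all genes tested, 2.05% were called higher at the first end and 1.14% lower. None of these lists has a mitochondrially encoded gene. Their part in the differences of mt-Tm, mt-Atp8 and mt-Nd3 was not tested.

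Nuclear copies of mitochondrial DNA could share reads with the members. The annotation holds 28 pseudogenes whose transcript matches a member over at least 100 bases at 80% identity or more, and 26 of them are listed in the tables. Together they had 558 to 853 CPM per muscle. Most of it was Gm11407 on chromosome 4, which matches mt-Nd5 at 92.3% over 1058 bases and had 405, 481, 315 and 591 CPM. Gm13339 and Gm13340 on chromosome 2 match mt-Nd2 at 96.7% and mt-Co1 at 97.6%, and averaged 44.6 ± 24.2 and 29.4 ± 6.28 CPM (SD, n = 4). The copies nearest in sequence had lower levels than these: 7 matched at 99.7% identity or more, and Gm28661, Gm28439 and Gm10925 matched parts of mt-Co2, mt-Nd4 and mt-Atp6 at 100%, with 8.86, 8.63 and 7.67 CPM on average. These 3 were named after their values were seen. How reads were split between such copies and the members is not known, so the values of both are uncertain. Entries naming several genes, a mitochondrially encoded one among them, numbered 262, 250, 186 and 136 and held 1878, 1682, 1642 and 1352 transcripts in muscles 1 to 4.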

How the data were processed

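The authors deposited, per muscle, estimated counts per gene and section barcode for 96 barcodes, with STAR 2.7.7a and GRCm38 named in the submitters' processing notes; which counter, annotation or strand setting was used is not given. Between 99.96% and 99.99% of these deposited counts, on a tolerance of 0.001, are a whole number of distinct UMIs after correction for repeated UMIs. A deposited filtered table holds a normalized signal, the counts times 1 factor per section by its values, and served only to find the kept sections. GENCODE M21 holds 28895 of the 28989 identifiers (the files write a point for the hyphen of mt-). Kept sections held 18924800, 17114400, 26989800 and 22878400 transcripts in single-gene entries, and 86190 to 1159700 per section; CPM are scaled to 1000000 of these. Entries naming several genes (0.580% to 0.930%) were left out. Zone sums (20) were rounded and fitted with edgeR 4.0.16 (R 4.3.3; TMM, filterByExpr, quasi-likelihood F-test), with muscle as a block, since the same muscle gives 5 zones. Per-muscle log2 differences used the same scaling and a prior count of 0.5. On simulated data the fit was tested for recovery of known changes. That simulation gave every gene the same scatter and had no UMI ceiling, so it does not cover the saturated members. Alternatives used DESeq2 1.42.0 and limma 3.58.1. Nuclear copies were found with blastn 2.17.0. Limits for 0 counts cover counting error only. Members and lists were chosen with earlier results of these data known. Values are given for members called in 1 or more contrasts, for mt-Nd3, mt-Atp8 and mt-Tm, and for the 2 highest of each class, and the rest are summarised; up to 3 called genes per list and direction and the 3 highest nuclear copies are named. Zones by rank of section were added after seeing the data.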

Additional observations from a re-analysis of the deposited data

Results flagged for a closer look

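Over the 66 sets of 4 muscle values checked for a value standing apart, 5 had a value whose gap to the nearest other exceeded Dixon's 95% critical value, which chance gives in about 1 in 20 sets. mt-Co3 was at 15018 CPM in muscle 3, against 12626 to 12820.5 CPM in the other muscles. mt-Tm, ends minus middle, was -0.52 in muscle 2, against -0.92 to -0.86 in the others. mt-Nd1, ends minus middle, was -0.33 in muscle 4, against 0.18 to 0.26 in the others. mt-Co2, ends minus middle, was -0.53 in muscle 3, against 0.18 to 0.27. mt-Ti, first end minus last end, was -0.036 in muscle 2, against 0.52 to 0.57. mt-Co3, mt-Nd1 and mt-Co2 are saturated.

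Barcodes outside the kept sections, which enter no comparison, also held mitochondrially encoded transcripts. Their share was 65.5%, 65.3%, 74.2% and 72.3% of 710775, 689579, 690175 and 554266 transcripts in muscles 1 to 4, over 59, 51, 50 and 53 barcodes. The kept sections of the same muscles were at 59.1%, 60.9%, 64.1% and 66.9%. The difference was not tested.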

How the results depend on the processing

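The differences of mt-Tm, mt-Atp8 and mt-Nd3 kept their sign under all 16 alternatives. mt-Tm stayed called at the ends in 15 of 16 (-1.14 to -0.38) and between the ends in 13 of 16 (0.52 to 0.85), mt-Atp8 in 11 and 9 of 16 and mt-Nd3 in 9 of 16. With no replicate block 0, 1 and 4 genes and 0 members were called for ends versus middle, first end versus last end and any zone, against 135, 297 and 372 genes and 2, 3 and 3 members in the fit with muscle as a block; 193 genes had an unadjusted p under 0.05 at the ends without the block. Members called, in the same order, were 9, 1 and 8 of 18 with distinct UMIs, where 146, 284 and 358 of 9363 genes were called. With no filter on low counts they were 5, 9 and 13 of 37, where 116, 202 and 345 of 28782 genes were called. DESeq2 called 5 of 18 between the ends and 6 in any zone, where 225 and 264 of 9317 genes were called. With limma on section means 4 were called at the ends and 1 between them, where 129 and 122 of 9317 genes were. Zones by rank called 5 in any zone, where 428 of 9136 genes were called. Muscles 1 and 2 alone gave 44, 159 and 179 genes and 1, 9 and 7 members, and muscles 3 and 4 alone 55, 74 and 158 genes and, between the ends and in any zone, 0 and 5 members. Ends versus middle gave 45 genes with 3 zones, and limma gave 122 genes between the ends and 229 in any zone. Leaving out 1 muscle gave 38 to 183, 87 to 201 and 174 to 325 genes and 1 to 3, 0 to 6 and 1 to 5 members. The 58 higher and 77 lower calls at the ends became 65 and 30 with DESeq2 and 14 and 115 with limma, whose median over all genes was -0.15; between the ends, 191 and 106 became 28 and 94 with limma. The share was 24.9% as distinct UMIs and 0.292% for members never near the ceiling. With scaling from nuclear genes 0 genes of the mitochondrial gene expression machinery were called. The causes were not tested. The UMI ceiling limits 13 members, whose differences are uncertain, and low counts limit the transfer RNAs.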

Other observations

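Correlations between members over the sections of a muscle differed in sign between pairs. Over 37 to 46 sections, Spearman's rho between mt-Tm and mt-Atp8 was 0.29 to 0.53 in the 4 muscles, and between mt-Tm and mt-Tv 0.13 to 0.55. Between mt-Tm and mt-Nd2, which follows it without a gap, rho was -0.49 to 0.07, with mt-Nd2 near the ceiling in 167 of 171 sections. Between mt-Atp8 and mt-Atp6, which share 43 bases, it was -0.42 to -0.24, with mt-Atp6 near the ceiling in 163 sections. All these values share the section's total as denominator, and they are given as a description.

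Transcripts assigned to mt-Rnr1 were 32.8%, 43.6%, 30.03% and 46.9% of those assigned to mt-Rnr2 in muscles 1 to 4. Those of mt-Atp8 were 3.81%, 3.89%, 3.71% and 3.20% of those of mt-Atp6, and those of mt-Tm were 0.0479%, 0.0776%, 0.0184% and 0.0133% of those of mt-Nd2. mt-Atp6 had every UMI seen in 10, 7, 36 and 34 sections of muscles 1 to 4, and mt-Nd2 in 18, 15, 36 and 34. Their values are capped there, so these shares are uncertain.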
